A study of Mus musculus with 7 samples.

Results

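A set of 9 genes of the epicardium and of mesothelium in general was followed through 7 libraries of cardiac fibroblasts sorted from growing mouse hearts. They were taken by name from the 54735 gene symbols of the table. They are the transcription factor genes Wt1 and Tbx18, the uroplakin genes Upk1b and Upk3b, the surface protein genes Msln and Lrrn4, and the keratin genes Krt8, Krt18 and Krt19. All 9 passed the filter on low counts, which kept 17636 genes. Postn P7 (2 libraries) held cells of PostnMCM;R26eGFP mice aged 7 days. Tcf21 P30 (3 libraries) and Tcf21 P7 (2 libraries) held cells of Tcf21MCM;R26eGFP mice aged 30 and 7 days. In all 3 groups MerCreMer, a recombinase switched on by tamoxifen, was driven by the gene of the secreted matrix protein periostin (Postn) or of the fibroblast transcription factor Tcf21, and it turned on a green reporter in the Rosa26 locus. Reporter-positive cells were sorted by flow cytometry from pooled males and females, so each library holds whatever cell had switched on the driver gene, or was carried through the sort, and need not hold fibroblasts alone. The labels give neither the number of hearts nor the days of tamoxifen.

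The epicardium is the mesothelial sheet on the surface of the heart. During development part of its cells lose their epithelial contacts, enter the heart wall and become fibroblasts and mural cells of vessels. WT1 and TBX18 are transcription factors of the epicardium, but Wt1 is also known from some endothelial cells and Tbx18 from pericytes. Uroplakins are membrane proteins first known from the bladder lining, mesothelin (Msln) is a membrane-anchored glycoprotein of mesothelium, and LRRN4 is a membrane protein with leucine-rich repeats. Keratin 8 pairs with keratin 18 or keratin 19 in the filaments of simple epithelia.

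The libraries held 15207835 to 18519528 counts. Levels are given as normalised CPM, counts per 1000000 counts after scaling by the trimmed mean of M values, and a count of 0 is compatible with up to 0.159 to 0.192 CPM in these libraries (3 counts; counting error only). Fibroblast markers were high in every library, with sums over 8 genes of 22134 and 27366 CPM for Postn P7, 16522 to 20149 CPM for Tcf21 P30 and 29988 and 30084 CPM for Tcf21 P7. The Postn gene itself stood at 2995 and 3695 CPM in Postn P7, at 756, 907 and 821 CPM in Tcf21 P30 and at 4258 and 4549 CPM in Tcf21 P7. Tcf21 stood between 271 and 428 CPM throughout. Postn was thus lower in both Postn P7 libraries than in those of Tcf21 P7, and the Tcf21 levels of these groups overlapped. The defining epithelial genes Cdh1, Epcam, Cldn4, Crb3 and Esrp1 had 0 to 5 counts in each library, and mesothelium is itself poor in some of them. Endothelial markers, summed over 12 genes with none at 0, were uneven within groups: they reached 1800 and 1097 CPM in the Postn P7 libraries, 4260, 1122 and 1359 CPM in those of Tcf21 P30, and 1309 and 1162 CPM in those of Tcf21 P7. Tcf21 P30 replicate 1 and Postn P7 replicate 1 thus stand apart, and values without them are given beside the comparisons.

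The 4 surface protein genes were present in some libraries and missing from others of the same group. Upk3b (chromosome 5, 136038496 to 136046487 in GRCm38, protein coding) had 386 and 0 counts in Postn P7, 29, 3 and 0 counts in Tcf21 P30, and 117 and 94 counts in Tcf21 P7. Msln (chromosome 17, 25748613 to 25754378, protein coding) had 333 and 0 counts in Postn P7, 34, 0 and 0 counts in Tcf21 P30, and 129 and 110 counts in Tcf21 P7. Lrrn4 (chromosome 2, 132868305 to 132880891, protein coding) had 174 and 0 counts in Postn P7, 14, 0 and 0 counts in Tcf21 P30, and 53 and 55 counts in Tcf21 P7. For all 3 genes the highest library of the series was Postn P7 replicate 1, and the other library of that group was at 0. Upk1b, which encodes a tetraspanin-type uroplakin (chromosome 16, 38773184 to 38800328, protein coding), had 41 and 0 counts in Postn P7, 17, 0 and 0 counts in Tcf21 P30, and 18 and 26 counts in Tcf21 P7. It was at 0 in the same libraries as Msln and Lrrn4.

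**Figure D1:**
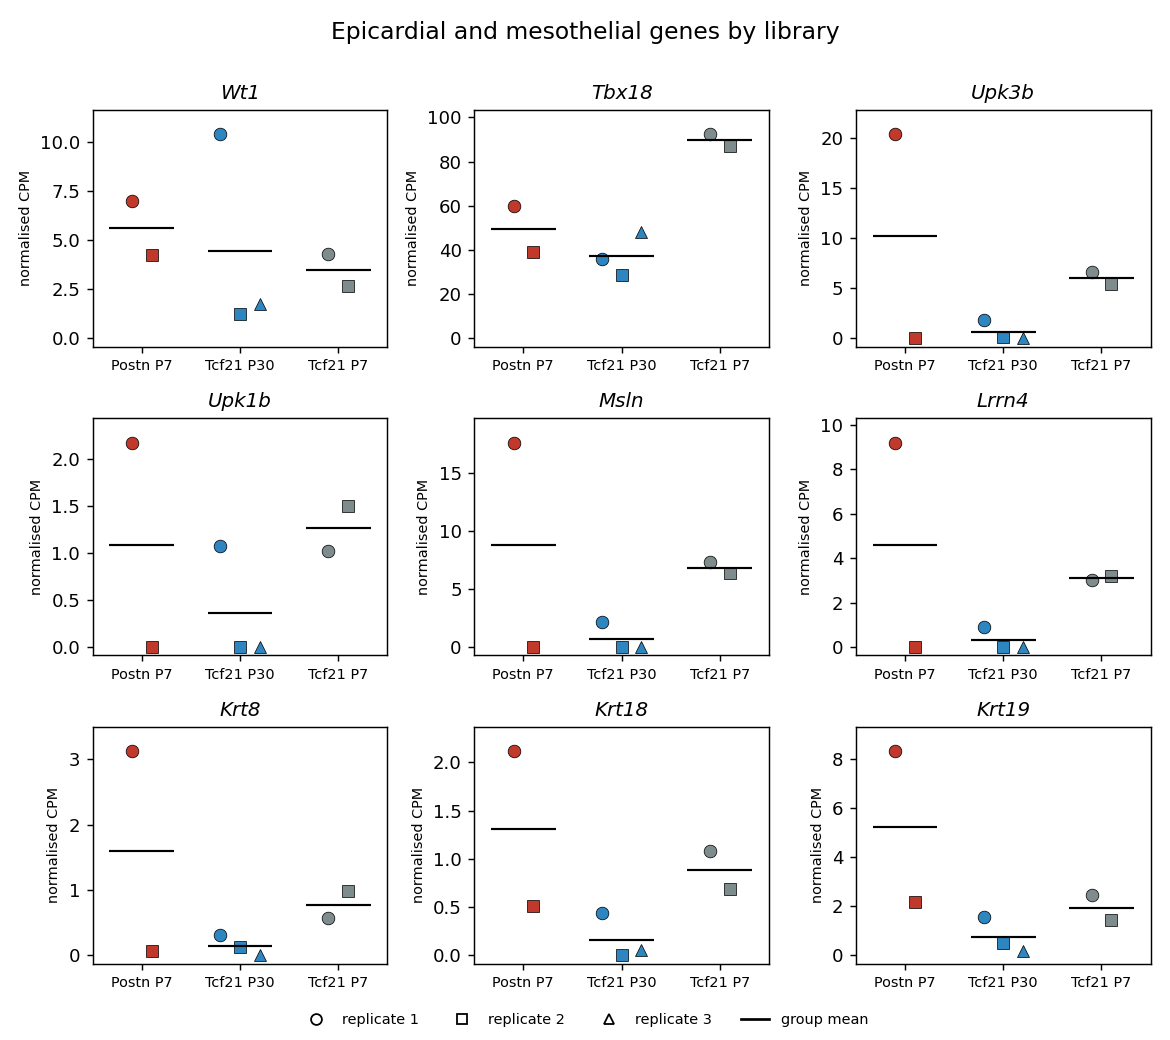
Normalised CPM of the 9 genes in each library, 1 panel per gene with its own axis from 0; symbols mark the replicate number and the lines the group means. For Upk3b, Msln, Lrrn4 and Upk1b the replicates of Postn P7 lie at both ends of the range, with replicate 2 at 0, and Tcf21 P30 replicates 2 and 3 lie at or near 0.

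The promoters of Upk3b and Lrrn4 are shown because both genes were highest in Postn P7 replicate 1 and at 0 in replicate 2 of that group. RefSeq promoter windows of GRCm38.p6 were at hand for 5 of the 9 genes, and the 250 bases before the RefSeq start are printed. The GENCODE coordinates given above place the start of Lrrn4 at 132880891, inside its printed window. Its last bases thus lie within the gene by that annotation. Capitals mark the letters GGAATG or their reverse complement CATTCC, the core of the motif of TEAD transcription factors.
Upk3b, chr5:136038246-136038495, plus strand: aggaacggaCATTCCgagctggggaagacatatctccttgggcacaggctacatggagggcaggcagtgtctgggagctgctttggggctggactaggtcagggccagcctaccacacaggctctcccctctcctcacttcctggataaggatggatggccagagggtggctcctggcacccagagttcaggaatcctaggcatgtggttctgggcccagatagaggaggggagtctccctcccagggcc
Lrrn4, chr2:132880863-132881112, minus strand: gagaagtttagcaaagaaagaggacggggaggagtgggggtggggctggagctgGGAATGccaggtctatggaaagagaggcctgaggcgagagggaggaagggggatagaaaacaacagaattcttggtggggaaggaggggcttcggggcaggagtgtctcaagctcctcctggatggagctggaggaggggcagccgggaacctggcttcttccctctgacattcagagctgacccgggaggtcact
Searched on both strands, the TEAD core began 241 bases before the RefSeq start of Upk3b (position -241) and 196 bases before that of Lrrn4 (position -196). It was found in 2 of the 5 windows, and in 12.6% of 32851 promoter windows of the same length. The T-box core GGTGTG (16.3% of all windows) and GCGTGGG, a stretch shared by motifs of EGR1 and WT1 (4.3%), were in none of the 5 windows. Such matches are letters and not binding sites.

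Together the 4 genes had 934 counts (49.4 CPM) in Postn P7 replicate 1 and 0 counts in replicate 2. Against the limit of 3 counts this is at least 257-fold higher in replicate 1. Tcf21 P30 had 94 counts (5.93 CPM) in replicate 1, 3 in replicate 2 and 0 in replicate 3. Tcf21 P7 had 317 (18.02 CPM) and 285 counts (16.4 CPM), which differed 1.10-fold with an exact 95% Poisson interval of 0.931 to 1.29. Postn P7 replicate 1 exceeded the 2 Tcf21 P7 libraries 2.74-fold (interval 2.41 to 3.12) and 3.00-fold (interval 2.63 to 3.44). These ratios compare single libraries and not the groups, and the intervals cover counting error only. In bulk RNA fewer cells of a type and less RNA per cell cannot be told apart.

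Within the 4 libraries with more than 3 counts of these transcripts, the proportions among the 4 genes varied less than their sum. Upk3b made up 41.3% of their counts in Postn P7 replicate 1 (exact 95% binomial interval 38.1% to 44.6%), 30.9% in Tcf21 P30 replicate 1 (21.7% to 41.2%), and 36.9% (31.6% to 42.5%) and 32.98% (27.6% to 38.8%) in the Tcf21 P7 libraries. The share of Msln was 35.7% in Postn P7 replicate 1, 36.2% in Tcf21 P30 replicate 1, and 40.7% and 38.6% in Tcf21 P7. Lrrn4 held 14.9% to 19.3%. Upk1b departed from this, with 4.39% in Postn P7 replicate 1 (3.17% to 5.91%), 18.1% in Tcf21 P30 replicate 1 (10.9% to 27.4%), and 5.68% and 9.12% in Tcf21 P7. The Upk1b intervals of the 2 Tcf21 P7 libraries were 3.40% to 8.83% and 6.05% to 13.1%. The interval of Tcf21 P30 replicate 1 did not overlap those of Postn P7 replicate 1 and Tcf21 P7 replicate 1. That of Postn P7 replicate 1 did not overlap that of Tcf21 P7 replicate 2 either.

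**Figure D2:**
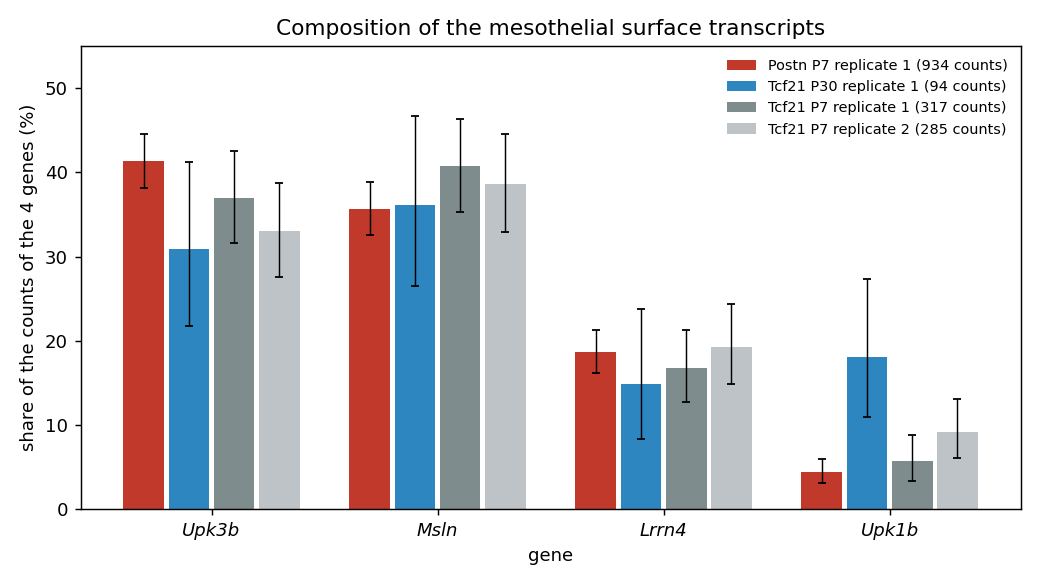
Share of each gene in the summed counts of Upk3b, Msln, Lrrn4 and Upk1b, in percent, for the 4 libraries with more than 3 such counts; error bars are exact 95% binomial intervals. Upk3b, Msln and Lrrn4 keep similar shares, while Upk1b is 4.39% in Postn P7 replicate 1 and 18.1% in Tcf21 P30 replicate 1.

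The summed markers of cardiomyocytes and of erythroid cells were lower in the libraries with at most 3 counts of the surface genes than in all others. The 10 cardiomyocyte markers, none at 0, summed to 1349 and 723 CPM in Postn P7, to 1070.2, 523 and 580 CPM in Tcf21 P30, and to 1389 and 1273 CPM in Tcf21 P7. The 7 erythroid markers summed to 370 and 68.9 CPM in Postn P7, to 621, 181 and 291 CPM in Tcf21 P30, and to 506 and 482 CPM in Tcf21 P7, with 1 marker at 0 in Postn P7 replicate 2. The cardiomyocyte markers Myh7 and Ryr2 went the other way between Tcf21 P30 replicates 2 and 3 and Tcf21 P7. Myh7 stood at 32.4 and 21.7 CPM against 14.9 and 10.3 CPM, and Ryr2 at 24.7 and 25.6 CPM against 20.2 and 11.1 CPM. Within Postn P7 and within Tcf21 P30, the endothelial sum and the pericyte and smooth muscle sum were also highest in replicate 1. The fibroblast sum was lowest in replicate 1 of both groups. The part of any of these in the result was not tested.

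The keratins had a similar but less complete pattern. Krt8, a type II keratin gene (chromosome 15, 101996698 to 102004482, protein coding), had 59 and 1 counts in Postn P7, 5, 2 and 0 counts in Tcf21 P30, and 10 and 17 counts in Tcf21 P7. Krt18, a type I keratin gene 23697 bases away (102028180 to 102032027, protein coding), had 40 and 8 counts in Postn P7, 7, 0 and 1 counts in Tcf21 P30, and 19 and 12 counts in Tcf21 P7. Krt19 (chromosome 11, 100140810 to 100148665, protein coding) had 157 and 34 counts in Postn P7, 25, 8 and 3 counts in Tcf21 P30, and 43 and 25 counts in Tcf21 P7. Postn P7 replicate 1 was again highest for each keratin, but replicate 2 of that group, with none of the surface transcripts, still held Krt19 at 2.18 CPM, between the 2.44 and 1.44 CPM of the Tcf21 P7 libraries. Between the Postn P7 replicates Krt19 differed 3.81-fold (exact 95% Poisson interval 2.62 to 5.70). Exons of Krt8 overlap the predicted gene Gm36026 on the opposite strand, which had 0 to 5 counts in each library.

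Wt1 was detected in all 7 libraries. Wt1 (chromosome 2, 105126529 to 105173616, protein coding) stood at 6.98 and 4.23 CPM in Postn P7, at 10.4, 1.27 and 1.76 CPM in Tcf21 P30, and at 4.32 and 2.65 CPM in Tcf21 P7. Its highest library was Tcf21 P30 replicate 1, where the surface genes summed to 5.93 CPM, below Postn P7 replicate 1 and both Tcf21 P7 libraries. It was present in Postn P7 replicate 2, where they were at 0. Within Postn P7 and within Tcf21 P30, Wt1 and the surface genes were alike highest in replicate 1. The groups overlapped in every comparison. The highest and the second highest Wt1 values fell in the libraries with the highest and second highest endothelial sums. These were Tcf21 P30 replicate 1 (4260 CPM) and Postn P7 replicate 1 (1800 CPM). The other 5 libraries had endothelial sums of 1097 to 1359 CPM and Wt1 at 1.27 to 4.32 CPM. Of these sums, Tek alone stood at 351 to 540 CPM in every library. Single markers differed in order among the 5 libraries. Pecam1 ran from 61.6 CPM in Tcf21 P30 replicate 2 to 106 CPM in Tcf21 P7 replicate 1, the lowest and highest of the 5 for Wt1 as well. Ly6c1 ran from 29.7 CPM in Postn P7 replicate 2 to 123 CPM in Tcf21 P30 replicate 3. The part of endothelial transcripts in the Wt1 level was not tested. Wt1os, the antisense RNA that starts beside Wt1, had 0 to 5 counts in each library.

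Tbx18 was the most abundant of the 9 genes. Tbx18 (chromosome 9, 87702800 to 87731260, protein coding) stood at 59.9 and 39.0 CPM in Postn P7, at 35.8, 28.5 and 48.2 CPM in Tcf21 P30, and at 92.4 and 87.1 CPM in Tcf21 P7. Both Tcf21 P7 libraries lay above all others, and Postn P7 overlapped Tcf21 P30. The 12 pericyte and smooth muscle markers, none at 0, summed to 2852 and 2078 CPM in Postn P7, to 2222, 1024 and 1098 CPM in Tcf21 P30, and to 1552 and 1535 CPM in Tcf21 P7. In Postn P7 this sum was higher than in Tcf21 P7 in both libraries while Tbx18 was lower in both. Exons of Tbx18 overlap those of D030062O11Rik on the opposite strand. That gene stood at 12.7 and 7.88 CPM in Postn P7, at 8.84, 6.28 and 10.4 CPM in Tcf21 P30, and at 20.3 and 19.4 CPM in Tcf21 P7. The strand setting of the counting was not given in the sources used here, so reads of these overlapping genes cannot be told apart.

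**Figure D3:**
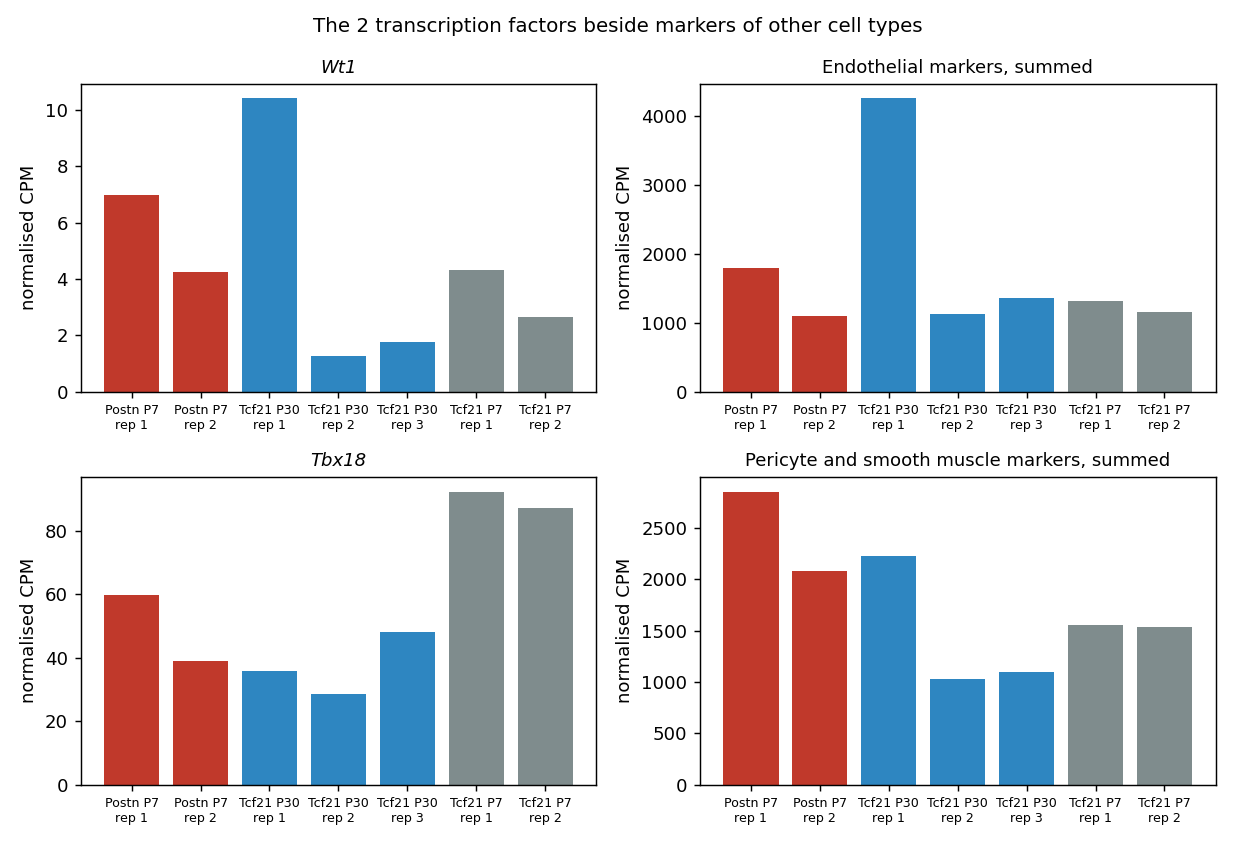
Normalised CPM per library, by colour of group, of Wt1 and Tbx18 (left) and of the summed markers of endothelial cells and of pericytes and smooth muscle (right), with bars from 0. Wt1 peaks at 10.4 CPM in Tcf21 P30 replicate 1, which also has the endothelial peak of 4260 CPM, while Tbx18 is above 87 CPM in both Tcf21 P7 libraries and at most 59.9 CPM elsewhere.

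Per kilobase of annotated exon, levels can be set side by side between genes. In Tcf21 P7 Tbx18 averaged 19.0 ± 0.800 CPM per kb (SD, n = 2), followed by Msln at 2.23 ± 0.227, Upk3b at 1.71 ± 0.245, Krt19 at 1.05 ± 0.382 and Lrrn4 at 0.833 ± 0.0307 CPM per kb. Krt18, Upk1b, Wt1 and Krt8 followed at 0.617 ± 0.191, 0.604 ± 0.162, 0.563 ± 0.190 and 0.396 ± 0.149 CPM per kb, each differing from the next by less than their spread. The libraries of Krt19 and Lrrn4 overlapped, while Tbx18, Msln and Upk3b lay apart from each other and from the rest. In Postn P7 replicate 1 Upk3b and Msln came next after Tbx18 (12.7 CPM per kb), at 5.78 and 5.75 CPM per kb. In Postn P7 replicate 2 Krt19 and Wt1 came next after Tbx18 (8.27 CPM per kb), at 1.17 and 0.682 CPM per kb. In Tcf21 P30 Tbx18 averaged 7.95 ± 2.12 CPM per kb (SD, n = 3), and the means of the other 8 genes ran from 0.0753 to 0.723 CPM per kb. Their spread was large, and the order of the means did not hold in every library. In replicate 2 Krt19 (0.273 CPM per kb) was above Wt1, and in replicate 3 Krt18 (0.0382 CPM per kb) was above Msln (0). Wt1 stood at 1.68, 0.205 and 0.284 CPM per kb in replicates 1 to 3, and Krt8 at 0.161, 0.0648 and 0 CPM per kb.

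Periostin-traced cells were compared with Tcf21-traced cells of the same age, the comparison by which the series set apart subpopulations of fibroblasts. None of the 9 genes was called in Postn P7 against Tcf21 P7, where 12.0% of all genes tested were (6.52% higher and 5.49% lower). Calls are at an adjusted p under 0.05 in edgeR's quasi-likelihood F-test with Benjamini-Hochberg adjustment over all genes. At an unadjusted p under 0.05 there was 1 gene, Tbx18. Tbx18 averaged 49.5 ± 14.8 CPM in Postn P7, against 89.7 ± 3.77 CPM for Tcf21 P7 (SD, n = 2 each), a log2 fold change of -0.86 ± 0.28 (SE; adjusted p = 0.091), and its groups did not overlap. This was the sole gene of the 9 without overlap, against 32.5% of all genes lower and 31.4% higher without overlap. DESeq2 and the fit of these 2 groups alone called Tbx18 lower, with adjusted p of 0.010 and 0.048, and over all alternatives its adjusted p ran from 7.9e-06 to 0.31. Wt1 differed by 0.69 ± 1.02 and Krt19 by 1.43 ± 0.90, and without Postn P7 replicate 1 Krt19 differed by 0.16. The standard errors of Upk3b (0.77 ± 1.91), Msln (0.37 ± 2.01) and Lrrn4 (0.59 ± 1.84) were larger than the differences. The median over the 9 genes was 0.59, and that of all genes tested was 0.00. For Upk3b, Msln and Lrrn4 the sign rested on 1 library. Without Postn P7 replicate 1 their Postn P7 group held no count, and they were below Tcf21 P7 with adjusted p of 0.21, 0.30 and 0.20, while Krt8 and Krt18 differed by -3.45 and -0.79. Without both endothelial-rich libraries 5 genes were called lower in Postn P7 (Tbx18, Upk1b, Upk3b, Msln and Lrrn4), with Postn P7 then being replicate 2 alone and assumed to vary like the other groups, and 1768 of all genes were called lower in that fit, against 969 with all libraries.

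Tcf21-traced cells at 30 days were compared with those at 7 days. Tbx18 was the sole called gene of the 9 and was lower in Tcf21 P30, where 15.0% of all genes tested were called lower and 31.8% in either direction. It averaged 37.5 ± 9.998 CPM in Tcf21 P30 (SD, n = 3) and 89.7 ± 3.77 CPM in Tcf21 P7 (SD, n = 2), a log2 fold change of -1.26 ± 0.25 (adjusted p = 0.0099). The call did not hold with 1 Tcf21 P7 library: the adjusted p was 0.064 with replicate 1 left out, 0.054 with replicate 2 left out and 0.056 with both summed, while the fold change stayed between -1.22 and -1.30. Tbx18, Upk3b, Msln, Lrrn4, Krt8 and Krt18 were lower without overlap, 6 of 9 genes, against 29.9% of all genes. The 5 that were not called differed by -3.19 ± 2.01 (Upk3b), -3.28 ± 2.10 (Msln), -3.40 ± 2.03 (Lrrn4), -2.38 ± 1.48 (Krt8) and -2.40 ± 1.06 (Krt18). The median of the 9 was -2.38, against 0.03 over all genes tested. Wt1 differed by 0.35 ± 0.95 (adjusted p = 0.80), and this sign rested on Tcf21 P30 replicate 1. Without that library Wt1 was lower in Tcf21 P30 by -1.19 (adjusted p = 0.048), and 3 genes were called lower (Wt1, Tbx18 and Krt18). The endothelial-rich libraries also held the surface transcripts of their groups. Tcf21 P30 replicate 1 had 94 counts of the 4 surface genes against 3 and 0, and Postn P7 replicate 1 had 934 against 0. Leaving both out removes these counts and the spread between replicates, so the number of members called in that fit depends on this choice. Without both endothelial-rich libraries all 9 were called lower, as were 3587 of all genes, against 2652 with all libraries.

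Postn P7 against Tcf21 P30 differs in driver gene and in age, which cannot be told apart, and it shares libraries with the comparisons above. None of the 9 was called, against 24.2% of all genes tested, although all 9 differences were above 0 and 3 genes (Krt8, Krt18 and Krt19) had an unadjusted p under 0.05. Krt19 averaged 5.24 ± 4.33 CPM in Postn P7 (SD, n = 2) and 0.750 ± 0.737 CPM in Tcf21 P30 (SD, n = 3), with a log2 fold change of 2.82 ± 0.86 (adjusted p = 0.056). Krt18 differed by 2.98 ± 1.03 (adjusted p = 0.072). These 2 were the genes without overlap, against 24.7% of all genes higher without overlap. DESeq2 called the 3 keratins higher in Postn P7, with adjusted p of 0.0018 for Krt19, 0.046 for Krt18 and 0.046 for Krt8. The differences of Upk3b, Msln and Lrrn4 were 3.95 ± 2.00, 3.65 ± 2.09 and 3.99 ± 2.00, and without Postn P7 replicate 1 they were below 0. Without that library the keratins were not called by edgeR either, with differences of -1.07 for Krt8, 1.61 for Krt18 (adjusted p = 0.47) and 1.55 for Krt19 (adjusted p = 0.32). Wt1 differed by 0.33 ± 0.92. Without Postn P7 replicate 2 Krt8 and Krt19 were called higher, by 4.38 and 3.47. Without Tcf21 P30 replicate 1 Wt1 was called higher in Postn P7 by 1.89 (adjusted p = 0.0077), and so were Krt18 and Krt19, by 5.21 and 3.99.

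**Figure D4:**
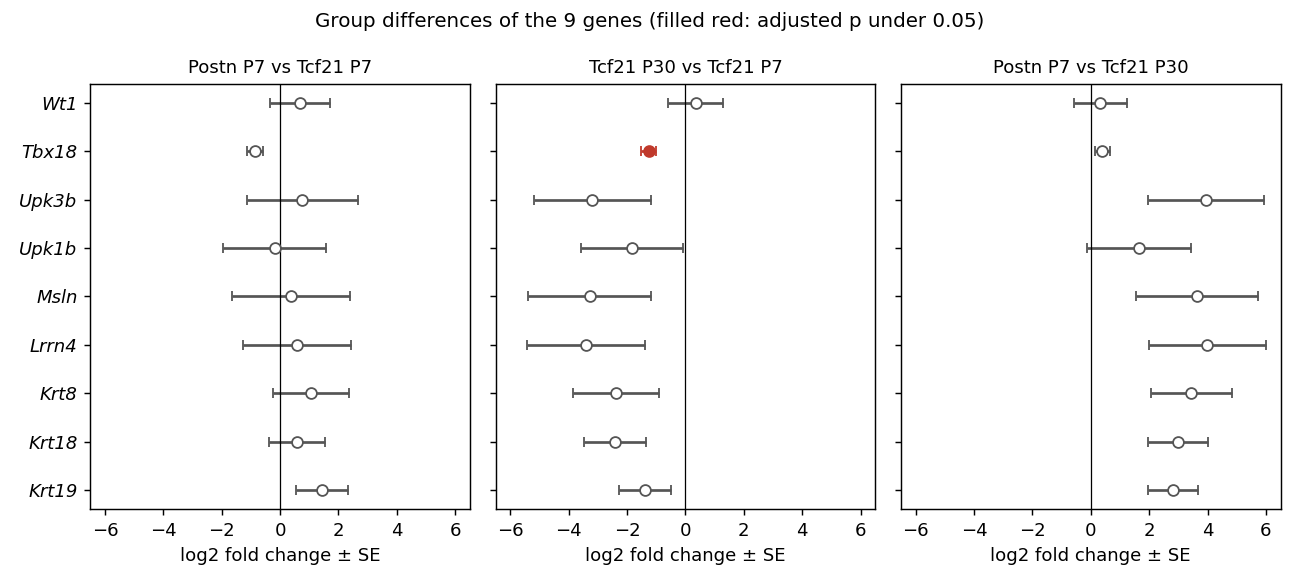
Log2 fold changes with SE of the 9 genes in the 3 comparisons from edgeR's quasi-likelihood fit; filled red points passed an adjusted p of 0.05. Tbx18 in Tcf21 P30 against Tcf21 P7 (-1.26) is the sole filled point, and the bars of Upk3b, Msln and Lrrn4 span about 2 units on either side.

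A further 16 genes known from epicardium or mesothelium were examined, of which 15 were tested. Several of them are also expressed by fibroblasts, and Tcf21 is one of the driver genes. In Postn P7 against Tcf21 P7 2 were lower and none higher, and the median was 0.08. Of all genes tested 5.49% were called lower and 6.52% higher there. Efemp1, which encodes a fibulin, was lower by -1.37 ± 0.22 and Aldh1a2, which makes retinoic acid, by -0.69 ± 0.12 (389 and 388 CPM in the Postn P7 libraries, against 626 and 625 CPM in those of Tcf21 P7). In Tcf21 P30 against Tcf21 P7 3 were lower and 4 higher, with a median of -0.05, against 15.0% of all genes called lower and 16.7% higher. Nkain4 was lower by -3.15 ± 0.15, at 2.15, 2.09 and 2.25 CPM in Tcf21 P30 against 18.5 and 20.02 CPM in Tcf21 P7, and Aldh1a2 by -2.22 ± 0.11. Efemp1 (2.03 ± 0.20) and the claudin gene Cldn15 (1.67 ± 0.29) were among those that were higher. In Postn P7 against Tcf21 P30 3 were higher and 4 lower, led by Efemp1 (-3.40 ± 0.22) and Nkain4 (3.23 ± 0.15). Of all genes tested 11.7% were called higher and 12.5% lower there. The replicates of Nkain4 and Aldh1a2 lay close together in every group, unlike those of the surface genes: in Postn P7 replicates 1 and 2, Nkain4 stood at 18.9 and 21.9 CPM.

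Of these 16 genes 5 had their highest level in Postn P7 replicate 1, as the surface genes did, and 11 in another library. Postn P7 replicate 1 was above replicate 2 for 10 genes and below it for 6, among them Sema3d at 156 and 210 CPM and Aldh1a1 at 46.6 and 69.1 CPM. Krt7, Bnc1 and Muc16, 3 of the 5, are named after their values were seen. Krt7, a type II keratin gene, had 110 and 2 counts in Postn P7, 5, 0 and 3 counts in Tcf21 P30, and 24 and 20 counts in Tcf21 P7. Bnc1, which encodes the transcription factor basonuclin 1, had 21 and 0 counts in Postn P7, 0, 0 and 2 counts in Tcf21 P30, and 13 and 10 counts in Tcf21 P7. Both were highest in Postn P7 replicate 1 and at or under 3 counts in its other replicate. The mucin gene Muc16 had 22 counts in Postn P7 replicate 1 and at most 1 in every other library.

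**Figure D5:**
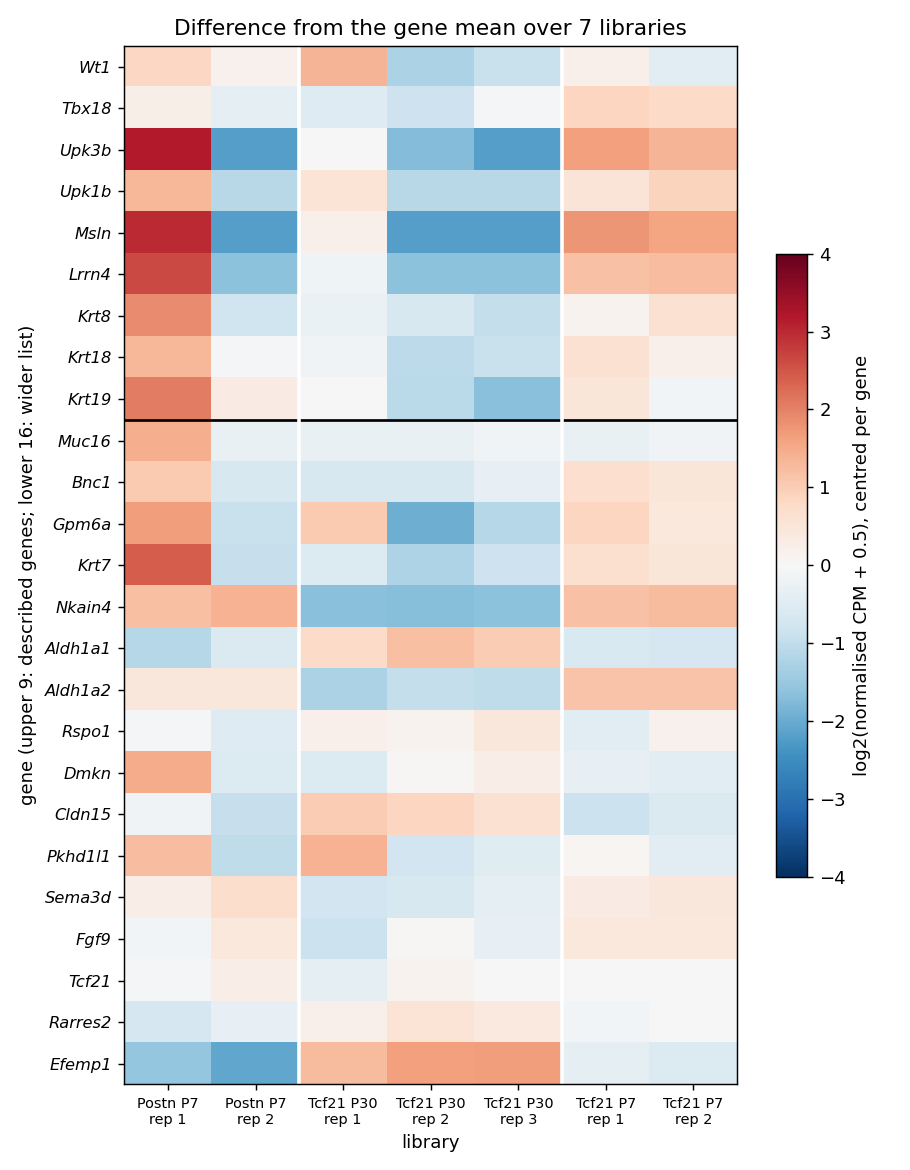
Log2(normalised CPM + 0.5) of the 9 genes (upper rows) and of 16 further epicardial and mesothelial genes (lower rows), centred on each gene's mean over the 7 libraries (columns). Upk3b, Msln, Lrrn4 and Krt7 are high in Postn P7 replicate 1 and low in replicate 2, while Nkain4 and Aldh1a2 differ by age and are alike in both Postn P7 libraries.

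Genes with the most similar profile were sought among 13101 other genes with a mean of at least 1 CPM, with predicted genes (Gm and Rik symbols) left out. The measure was the mean absolute difference of centred log2(CPM + 0.5) over the 7 libraries. The added 0.5 shrinks the differences of genes with low levels, so distances are not comparable between genes of unlike level. For Upk3b the nearest of them, Cma1, was 0.78 away, whereas Msln was at 0.18 and Lrrn4 at 0.36. For Wt1 they were Klhl4, Afap1l1 and Itga6, at 0.10, 0.12 and 0.12. Itga6, an integrin subunit gene, stood at 125 and 86.2 CPM in Postn P7, at 209, 30.4 and 46.0 CPM in Tcf21 P30, and at 72.8 and 62.8 CPM in Tcf21 P7. For Tbx18 they were Dchs1, Zc3hav1l and Ehmt2, at 0.07, 0.08 and 0.10. For Lrrn4 and Krt8 the list held Krt7, at 0.54 and 0.33. The nearest to Upk1b was Wnt9b at 0.18, to Krt18 Dusp4 at 0.10, to Krt19 Dna2 at 0.30 and to Msln Cma1 at 0.78. From the other surface genes Upk1b was 0.67 (Lrrn4), 0.98 (Upk3b) and 1.03 (Msln) away. Wt1 and Upk3b were 1.59 apart, which cannot be set against distances to genes picked as nearest from 13101.

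Epithelial junction genes and genes of the epithelial to mesenchymal transition were examined as well. Their counts stand against all-gene shares of 12.0% called in Postn P7 against Tcf21 P7, 31.8% in Tcf21 P30 against Tcf21 P7, and 24.2% in Postn P7 against Tcf21 P30. Of 15 junction genes 10 were tested. None was called in Postn P7 against Tcf21 P7, where Jup, the plakoglobin gene, was the most expressed (412 and 369 CPM for Postn P7, against 512 and 482 CPM for Tcf21 P7), and 1 had an unadjusted p under 0.05. In Tcf21 P30 against Tcf21 P7 the claudin gene Cldn3 was lower (-2.66 ± 0.47), and Ezr, which encodes ezrin, and Jup were higher (0.59 ± 0.13 and 0.43 ± 0.11). The same 3 genes were called in Postn P7 against Tcf21 P30, with Cldn3 higher (2.45 ± 0.47) and Jup and Ezr lower. Of 13 transition genes 3 were higher in Postn P7 than in Tcf21 P7, Pdgfrb (0.61 ± 0.09), the repressor gene Snai2 (0.55 ± 0.11) and Zeb2 (0.46 ± 0.11), and none was lower. In Tcf21 P30 3 were lower than in Tcf21 P7, among them Fn1, the fibronectin gene (-2.11 ± 0.11), and Cdh2, the N-cadherin gene (-1.98 ± 0.12), and 3 were higher, with Snai1 at 0.79 ± 0.21. Between Postn P7 and Tcf21 P30 5 were higher and 3 lower.

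Among the markers of other cell types, 10 of 12 macrophage markers were lower in both Postn P7 and Tcf21 P30 than in Tcf21 P7, and their sums were 361 and 499 CPM in Postn P7, 435 to 656 CPM in Tcf21 P30 and 1248 CPM in each Tcf21 P7 library. None of 12 endothelial and 10 cardiomyocyte markers was called in Postn P7 against Tcf21 P7, with 0 at an unadjusted p under 0.05 for either list. In Tcf21 P30 against Tcf21 P7 none of the endothelial markers was called (1 at an unadjusted p under 0.05) and 1 cardiomyocyte marker, Myl3, was lower. Between Postn P7 and Tcf21 P30 the endothelial receptor gene Tek was lower (-0.42 ± 0.10), and no cardiomyocyte or erythroid marker was called (0 at an unadjusted p under 0.05). Pdgfrb was the sole called pericyte and smooth muscle marker in both comparisons with Tcf21 P7, and higher in each, and Notch3 was higher in Postn P7 than in Tcf21 P30 (1.77 ± 0.43). Of 7 erythroid markers none was called in Postn P7 (0 at an unadjusted p under 0.05) and 1, Slc4a1, was lower in Tcf21 P30 than in Tcf21 P7. Of the 8 fibroblast markers none was called in Postn P7 (2 at an unadjusted p under 0.05), and in Tcf21 P30 2 were higher and 3 lower than in Tcf21 P7. Between Postn P7 and Tcf21 P30 3 fibroblast markers were higher and 3 lower, and 2 macrophage markers were lower (C1qa and Folr2). The shares called over all genes were 12.0% in Postn P7 against Tcf21 P7, 31.8% in Tcf21 P30 against Tcf21 P7, and 24.2% in Postn P7 against Tcf21 P30.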

How the data were processed

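Per the labels, RNA of sorted cells was sequenced on an Illumina HiSeq instrument. The authors deposited raw counts per gene symbol, 1 column per library; reads were aligned with STAR to GRCm38, per the submitters' processing notes. Not given in the sources used here are the STAR version, the counting program, its annotation and whether it used strand. The fit was made with edgeR 4.0.16 under R 4.3.3: filterByExpr (minimum count 10), TMM scaling, 1 robust quasi-likelihood fit of all 7 libraries with a mean per group, F-tests, and Benjamini-Hochberg adjustment over all 17636 genes tested (threshold 0.05). The SE of a log2 fold change is its size divided by the square root of F. The procedure was tested on simulated data. DESeq2 1.42.0 and limma 3.58.1 (voom) were among the alternatives. The labels do not say that replicates were separate animals, so the spread that p-values are read against may be technical. No pair of replicates agreed within sampling noise (chi-squared over degrees of freedom 3.43 in Tcf21 P7, 9.90 to 38.1 elsewhere). Coordinates and exon lengths are from GENCODE M21 (GRCm38), which held all 9 genes. The genes and lists were chosen with earlier results of these data known. Of each further list, up to 4 called genes with the largest changes were to be named, or the most expressed gene where none was called. The result of 1 marker list is not reported here.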

Additional observations from a re-analysis of the deposited data

How the results depend on the processing

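Many values of the surface and keratin genes are 0 to 5 counts, and their replicates also disagreed. At a depth of 15207835 to 18519528 counts per library, the 4 surface genes summed to 934 and 0 counts in Postn P7. Beside 0, 1 and 0 called members (Postn P7 against Tcf21 P7, Tcf21 P30 against Tcf21 P7, Postn P7 against Tcf21 P30), the fit with no filter on low counts called 2, 8 and 8. DESeq2 called 1 in the first (Tbx18, lower) and 3 in the last, and the fit of only the 2 groups compared called 1 in the first. With the Tcf21 P7 libraries summed 0 were called in the second. Without both endothelial-rich libraries 5, 9 and 2 were called, the last being Wt1 and Krt19. Leaving out 1 library at a time gave 0 in the first, 0 to 3 in the second and 0 to 3 in the last. Apart from the construction of the fits without libraries, the cause was not tested. Size factors as in DESeq2, upper-quartile factors, library size alone and limma-voom left the 3 counts as they were.

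Over all genes 2118, 5604 and 4276 were called, or 12.0%, 31.8% and 24.2% of the 17636 tested. With no filter 3442, 6636 and 5019 were called, but of a larger number of genes. That fit tested every gene with a count, and 21563 of the 54735 genes had none. In the first comparison 123 were called with the Tcf21 P7 libraries summed and 3750 without both endothelial-rich libraries, against 7344 and 4882 in the other comparisons. Leaving out 1 library gave 111 to 3250 in the first comparison, 2418 to 6063 in the second and 2810 to 5072 in the last. In the second 2463 were called with the libraries summed. With library size alone 1741 were higher and 472 lower in the first comparison, against 1149 and 969, and 2802 higher and 1725 lower in the last, against 2070 and 2206.

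Signs changed for uncalled members. In the first comparison limma-voom gave -2.55 for Upk3b, -2.85 for Msln, -0.32 for Krt8 and -2.23 for Lrrn4, and in the second -0.27 for Wt1. Without both endothelial-rich libraries the first comparison gave -9.67 for Upk3b, -9.85 for Msln, -8.71 for Lrrn4, -3.45 for Krt8 and -0.78 for Krt18, where the first 3 stand against a Postn P7 library at 0 and depend on the prior count, and the second gave -1.19 for Wt1. Leaving out 1 library, the first comparison ranged from -9.66 to 1.75 for Upk3b, -9.84 to 1.35 for Msln, -8.70 to 1.56 for Lrrn4, -3.45 to 1.99 for Krt8, -0.79 to 1.24 for Krt18 and -7.41 to 0.77 for Upk1b, the second from -1.19 to 0.78 for Wt1, and the last from -0.078 to 1.89 for Wt1, -5.58 to 7.29 for Upk1b, -6.48 to 6.76 for Upk3b, -6.56 to 10.3 for Msln, -1.07 to 4.63 for Krt8 and -5.30 to 9.34 for Lrrn4.

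The labels do not say that replicate numbers pair libraries. Deviations from the group means correlated between equal numbers by 0.045 to 0.373. Each library numbered 1 or 2 correlated best with its own number in another group. In groups of 2 libraries the deviations are mirror images, so these values repeat each other with either sign and cannot show pairing. With the replicate block 1 member was called in the first comparison (Tbx18, lower), 1 in the second and 2 in the last (Tbx18 and Krt19, higher), and the first comparison gave -0.78 for Upk3b, -1.37 for Msln and -0.90 for Lrrn4. Over all genes it called 1556, 4553 and 3348.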
